A study of Drosophila melanogaster with 12 samples.

Results

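The genes described here encode the machinery that copies DNA and the regulators that start S phase, in progenitor cells sorted from the adult female Drosophila midgut. A list of 37 named genes was taken, of which 36 had a row in the deposited data under an identifier paired with a symbol. RPA2 was not analysed here. Of those 36 genes, 35 reached 10 in 3 or more libraries and were tested among 8399 genes, and Psf1, with values between 0 and 14, was not. The member lat is named Orc3 and the member RpA-70 is named RPA1 in the annotation used.

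Before a cell copies its DNA, the origin recognition complex (ORC), Cdc6 and the Cdt1 protein Double parked load rings of the Mcm helicase onto DNA in G1. Cyclin E with Cdk2, and transcription by E2F with its partner Dp, then move the cell into S phase, where Cdc45 and the GINS complex turn the Mcm ring into the active helicase and the sliding clamp PCNA tethers the polymerases. In the fly midgut the intestinal stem cell is the main dividing cell. Enteroblasts, its daughters on the way to enterocytes, copy DNA without dividing, so transcripts of these genes do not separate a dividing cell from an endoreplicating one.

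Transcript 3′ ends were sequenced in 12 libraries of GFP-positive cells sorted from mated females, which were 3 to 4 days old before 7 days at 29 °C. Libraries labelled trxRNAi came from the esgtsGFP line crossed to UAS-trxRNAi (BDSC#33703), an RNA interference construct against trithorax (trx), a histone methyltransferase gene. Libraries labelled control came from the same line crossed to w1118, so they carry the driver and GFP but no RNAi construct. For the last 48 h the flies received 3% dextran sulfate sodium (DSS), which injures the gut epithelium, or 5% sucrose. The 4 groups were trxRNAi DSS, trxRNAi sucrose, control DSS and control sucrose, with 3 libraries each. The driver is of the kind active in stem cells and enteroblasts, and 1 RNAi line was used. No label ties a replicate to its own flies, so the p-values here cover the spread between these libraries, which may be technical. In bulk RNA, fewer cells of a type and less RNA per cell cannot be told apart.

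Values are the whole numbers the authors deposited, whose low values have the spacing of read counts scaled by one factor per library and rounded. Totals ranged from 5362337 to 6520981 per library. Each difference is on the log2 scale after adding 2 to the value, with the standard error (SE) that limma gave over all tested genes, and a gene is said to have passed when its Benjamini-Hochberg adjusted p was under 0.05. The RNAi target trx had values of 668, 667 and 448 in trxRNAi sucrose and 1114, 1217 and 1313 in control sucrose, and it fell by 1.05 ± 0.19 (adjusted p = 0.00356). Under DSS it had 715, 758 and 808 in the libraries labelled trxRNAi and 841, 1041 and 652 in those labelled control. That difference, -0.13 ± 0.19, did not pass (adjusted p = 0.772), so under DSS the genotype is given as labelled only. Of 12 progenitor markers, 11 had a row and all 11 were above 0 in every library, among them Sox21a and zfh2. The marker without a row under an identifier paired with its symbol was esg, so its level was not read. Markers of enteroendocrine cells, another cell type of the gut, were also above 0 in every library for 18 of 18 genes. Of 6 hemocyte genes 1, crq, was above 0 in every library, and He was listed at 0 in each of the 12.

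More of the replication genes were highest in trxRNAi sucrose, and more were lowest in control sucrose, than in any other of the 4 groups. By group mean on the log2 scale, 6 of the 35 tested genes were highest in trxRNAi DSS, 20 in trxRNAi sucrose, 8 in control DSS and 1 in control sucrose, where the shares over all tested genes were 28.44% for trxRNAi DSS, 20.61% for trxRNAi sucrose, 25.54% for control DSS and 25.41% for control sucrose. The lowest group was control sucrose for 25 of them, while control sucrose was lowest for 27.81% of all tested genes. In the 3 trxRNAi sucrose libraries, between 27 and 31 of the 35 genes lay above their own mean over the 12 libraries, against between 6 and 9 in control sucrose. The trxRNAi DSS libraries had between 21 and 24 genes above their mean. The control DSS libraries were uneven, with 21, 9 and 23 genes above their mean in replicates 1, 2 and 3. Of all tested genes, between 50.76% and 52.22% lay above their own mean in each of the 12 libraries. Summed over the 35 genes, values came to between 5276 and 5386 in trxRNAi sucrose and between 3538 and 3856 in control sucrose, without overlap. Under DSS the sums were 4502, 4513 and 4786 in trxRNAi and 4600, 4022 and 5799 in control, so that both the lowest and the highest of the 6 belonged to control.

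**Figure D1:**
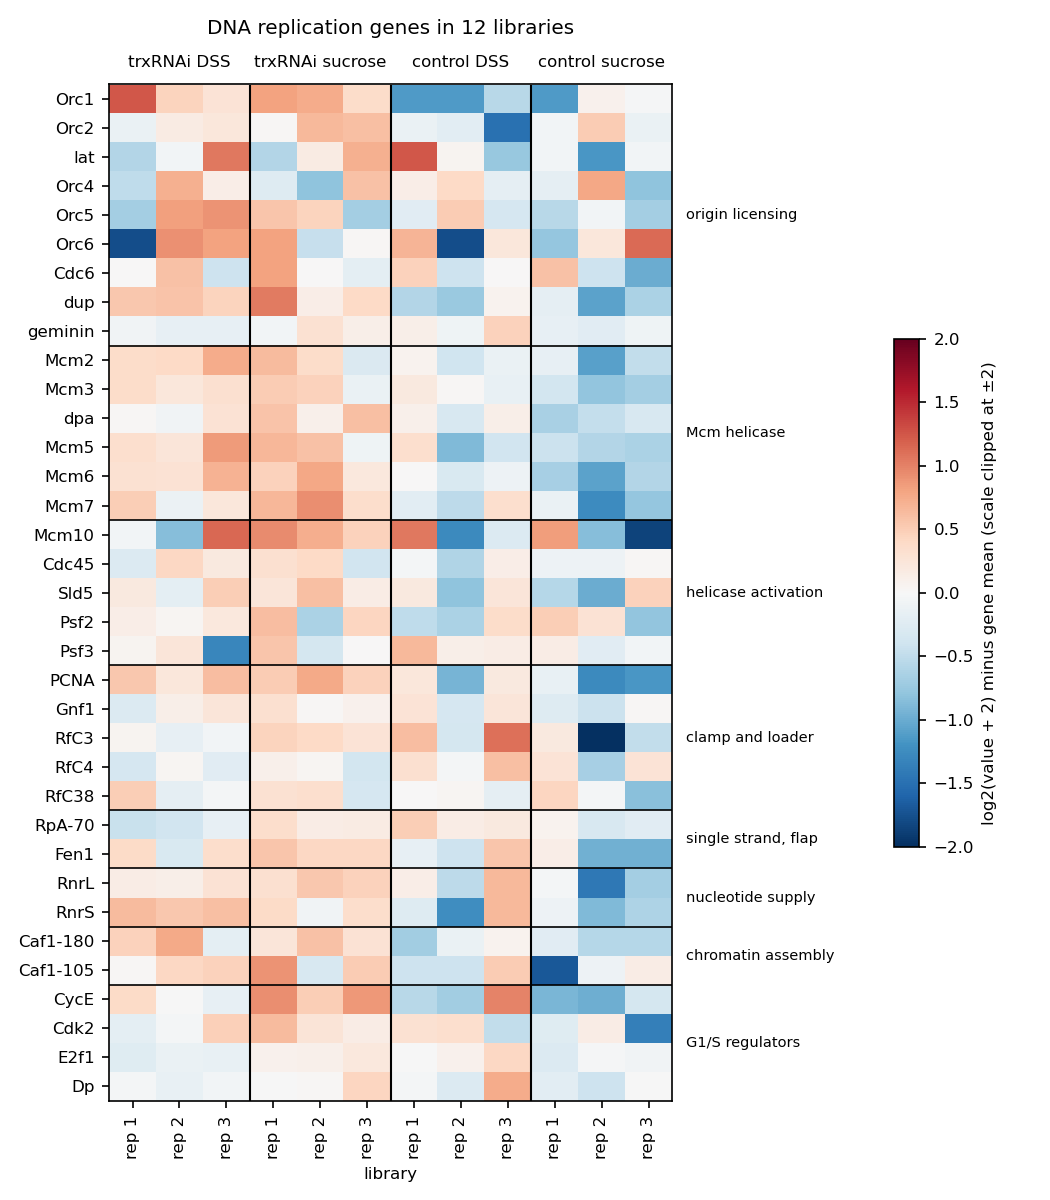
Deviation of each of the 35 tested replication genes from its own mean over 12 libraries, in log2 of value plus 2, with genes in rows by role and libraries in columns by group. Red cells fill most of the trxRNAi sucrose columns and blue cells most of the control sucrose columns, and control DSS replicate 2 is bluer than the other two control DSS libraries.

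The effect of trxRNAi without DSS was read under sucrose. Of the 35 genes 7 rose and 0 fell, or 20.0%, where 2.36% of all tested genes rose and 2.32% fell. The 7 were 4 subunits of the Mcm helicase (Mcm3, dpa, Mcm6 and Mcm7), the clamp gene PCNA, the ribonucleotide reductase gene RnrL and the cyclin gene CycE. At an unadjusted p under 0.05, 13 of the 35 differed, where 18.3% of all tested genes did. The median difference of the 35 was 0.75, against 0.01 over all tested genes, and 32 of the 35 differences were positive. In 17 of the 35 every trxRNAi sucrose library was above every control sucrose library, and in 0 it was the other way round, while 11.7% of all tested genes did not overlap in the one direction and 11.7% in the other. After rescaling to the mean total, the median of all genes became 0.10, and 278 genes rose and 150 fell in place of 198 and 195; 9 of the tested replication genes rose under that scaling and 0 fell.

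Of the 6 genes of the Mcm ring 4 rose. Mcm2 to Mcm7 encode the 6 different subunits of the ring that unwinds DNA, and dpa is the fly gene for the Mcm4 subunit. Mcm6 (FBgn0025815, chromosome X, 6674387 to 6677176, plus strand, dm6) had values of 145, 181 and 122 in trxRNAi sucrose and 65, 49 and 69 in control sucrose. Each trxRNAi library was above each control library, the rise was 1.26 ± 0.22 (SE), or 2.40-fold, and the adjusted p was 0.00272. Its call held in each of the 12 fits that left out one library. Mcm7 (chromosome 3L, 8891596 to 8894310, plus strand) had 138, 166 and 111 in trxRNAi sucrose and 79, 35 and 50 in control sucrose. The groups did not overlap, and Mcm7 rose by 1.36 ± 0.30 (adjusted p = 0.0135). Mcm3 (chromosome X, 5323855 to 5326738, plus strand) had 185, 178 and 118 in trxRNAi sucrose and 100, 74 and 80 in control sucrose and rose by 0.89 ± 0.21 (adjusted p = 0.0209). The subunit gene dpa had 107, 77 and 110 in trxRNAi sucrose and 45, 51 and 57 in control sucrose and rose by 0.90 ± 0.24 (adjusted p = 0.0370). The other two subunit genes lay at similar differences with larger errors. Mcm5 had 62, 59 and 36 in trxRNAi sucrose and 28, 25 and 24 in control sucrose, a difference of 0.94 ± 0.34 that did not pass (adjusted p = 0.136). Mcm2 had 83, 69 and 43 in trxRNAi sucrose and 47, 24 and 37 in control sucrose, with one trxRNAi library inside the control range and a difference of 0.82 ± 0.31 (adjusted p = 0.145). The 6 differences ran from 0.82 to 1.36 with a median of 0.92, and each had an unadjusted p under 0.05.

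PCNA, the ring that slides behind the fork, had 418, 494 and 404 in trxRNAi sucrose and 264, 120 and 129 in control sucrose. Control replicate 1 was the highest of its group and still below each trxRNAi library. PCNA rose by 1.44 ± 0.32 (SE), or 2.71-fold, with an adjusted p of 0.0186. The genes of the clamp loader RFC, which opens the ring and sets it on DNA, did not pass. RfC3 had 36, 35 and 32 in trxRNAi sucrose and 30, 5 and 18 in control sucrose, a difference of 1.14 ± 0.48 that did not pass (adjusted p = 0.205). Gnf1, the large loader subunit, differed by 0.36 ± 0.24, RfC38 by 0.25 ± 0.36 and RfC4 by -0.04 ± 0.26. The 95% confidence interval of RfC4 ran from -0.60 to 0.52, which leaves out the size measured for PCNA. Whether PCNA and the loader genes differed from each other was not tested.

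Genes for nucleotide supply and for finishing the new strand were also higher by value in trxRNAi sucrose. RnrL encodes the large subunit of ribonucleotide reductase, which makes deoxynucleotides. RnrL had 150, 175 and 165 in trxRNAi sucrose and 116, 43 and 74 in control sucrose, and it rose by 1.16 ± 0.31 (SE) with an adjusted p of 0.0434. RnrS, the small subunit, had 227, 164 and 220 against 161, 93 and 112 in control sucrose, and its difference of 0.75 ± 0.36 did not pass (adjusted p = 0.285). Fen1, the nuclease that trims flaps between Okazaki fragments, had 152, 139 and 139 in trxRNAi sucrose and 113, 52 and 52 in control sucrose. Its groups did not overlap, but the difference of 1.06 ± 0.31 missed the threshold (adjusted p = 0.0617). RpA-70, the large subunit of the protein that coats single-stranded DNA, had 179, 155 and 157 in trxRNAi sucrose and 148, 112 and 119 in control sucrose, a difference of 0.38 ± 0.19 (adjusted p = 0.311). The histone chaperone genes Caf1-180 and Caf1-105, whose products place histones on new DNA, differed by 0.83 ± 0.30 and 0.91 ± 0.49 without passing (adjusted p = 0.127 and 0.348).

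Among the regulators of S phase entry, CycE had the largest difference of the 35 genes. It had 152, 112 and 145 in trxRNAi sucrose and 41, 39 and 61 in control sucrose, and it rose by 1.51 ± 0.36 (SE), or 2.85-fold, with an adjusted p of 0.0214. The lowest trxRNAi sucrose library stood well above the highest control sucrose library. Its kinase partner gene Cdk2 had 46, 35 and 32 against 24, 32 and 10 in control sucrose, touching at 32, and differed by 0.84 ± 0.40 (adjusted p = 0.280). E2f1, the activating E2F, had 2140, 2159 and 2343 in trxRNAi sucrose and 1681, 1995 and 1933 in control sucrose. That difference was 0.25 ± 0.15 (adjusted p = 0.407), with a 95% confidence interval from -0.06 to 0.56. Dp differed by 0.35 ± 0.23 (adjusted p = 0.464).

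Of the 9 licensing genes none passed under sucrose (limma), 1 had an unadjusted p under 0.05, and most were low. The gene dup, which encodes the Cdt1 protein, had 84, 44 and 53 in trxRNAi sucrose and 35, 18 and 25 in control sucrose, without overlap, and its difference of 1.15 ± 0.33 narrowly missed the threshold (adjusted p = 0.0590). The gene geminin, whose product binds and blocks Cdt1 after S phase has begun, had 170, 218 and 192 in trxRNAi sucrose and 158, 151 and 167 in control sucrose, a difference of 0.28 ± 0.18 (adjusted p = 0.475). Orc1 had 21, 20 and 15 in trxRNAi sucrose and 4, 12 and 11 in control sucrose, a difference of 0.99 ± 0.47 (adjusted p = 0.273). The other ORC genes gave differences of 0.32 ± 0.43 for Orc2, 0.52 ± 0.59 for lat, -0.09 ± 0.48 for Orc4, 0.54 ± 0.50 for Orc5 and -0.06 ± 0.81 for Orc6. Cdc6, whose product works with ORC to load the helicase, had values between 2 and 12 in all 12 libraries and a difference of 0.48 ± 0.57. The 95% confidence interval of Orc6, the widest of these, ran from -1.77 to 1.65.

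None of the 5 genes that switch the loaded helicase on passed either (limma, 0 also at an unadjusted p under 0.05). Cdc45 had 102, 108 and 62 in trxRNAi sucrose and 76, 76 and 83 in control sucrose, a difference of 0.17 ± 0.27 (adjusted p = 0.814). The GINS subunit genes Sld5, Psf2 and Psf3 differed by 0.69 ± 0.41, 0.14 ± 0.48 and 0.11 ± 0.39. Mcm10, a scaffold of the fork outside the Mcm ring, had 12, 10 and 8 in trxRNAi sucrose and 11, 2 and 0 in control sucrose and differed by 1.34 ± 0.75 (adjusted p = 0.374).

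**Figure D2:**
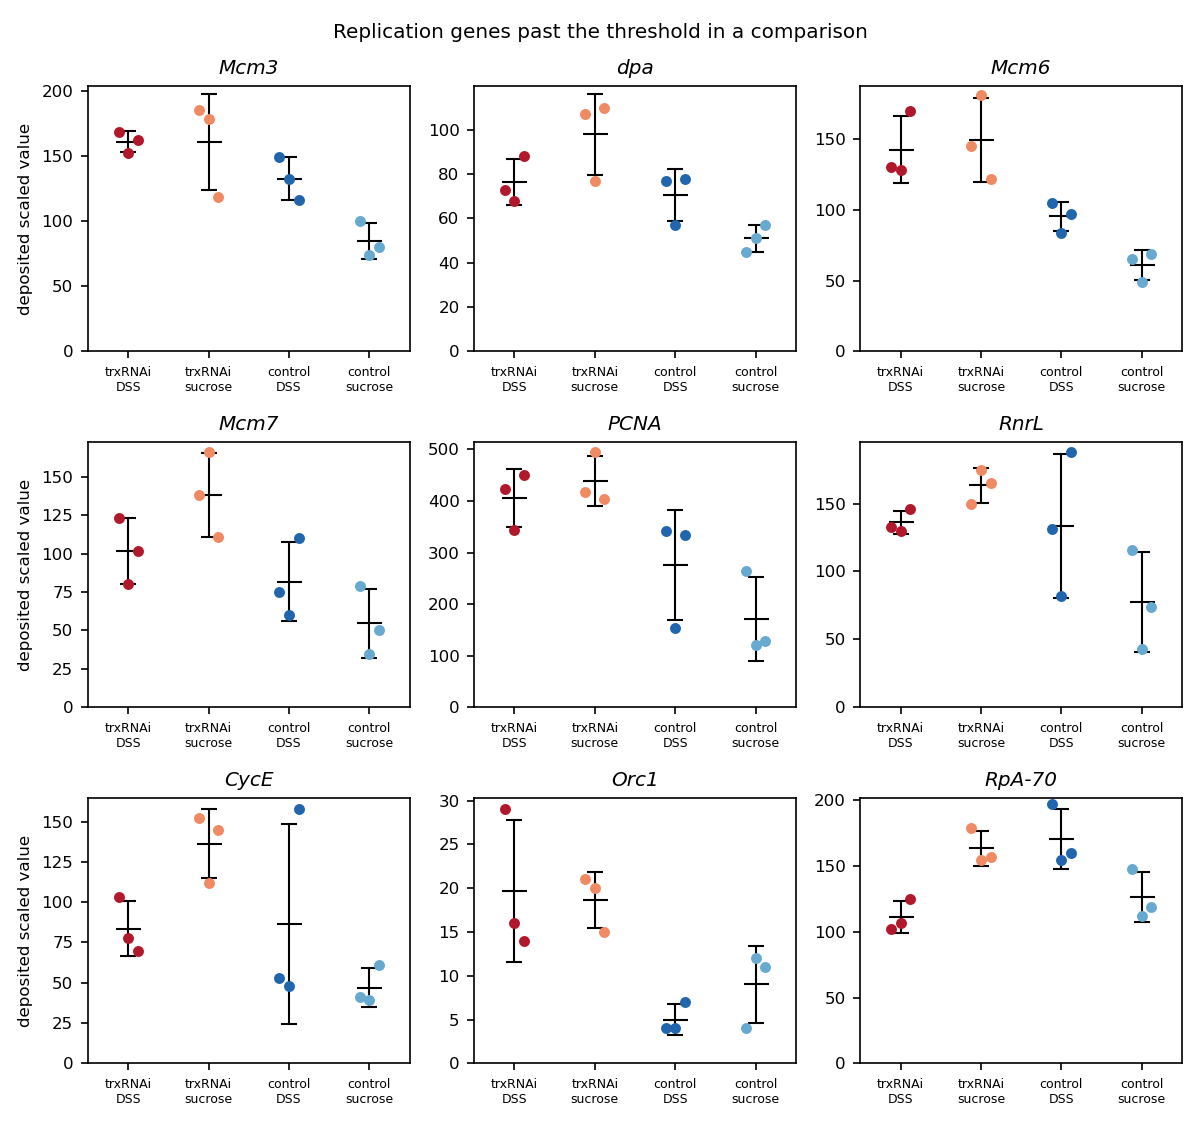
Deposited scaled values of the 9 replication genes that passed in at least one comparison, with one point per library, the group mean as a horizontal mark and the SD as a bar (n = 3). In Mcm6, PCNA and CycE the trxRNAi sucrose points lie above all control sucrose points, and for CycE one control DSS library, at 158, lies far above the other two.

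Of the 18 genes with a mean value of at least 50 over the 12 libraries 7 passed, with SEs between 0.15 and 0.36 and a median difference of 0.82. Of the 17 genes under 50 none passed (limma, 0 at an adjusted p under 0.05), with SEs between 0.33 and 0.81 and a median difference of 0.54. The count of genes that rose also rested on single libraries. It was 1 without control sucrose replicate 2, 1 without trxRNAi sucrose replicate 1, 2 without trxRNAi sucrose replicate 2, 3 without trxRNAi sucrose replicate 3 and 3 without control sucrose replicate 3. The highest adjusted p when one library was left out was 0.0781 for Mcm7 without trxRNAi sucrose replicate 2, and 0.120 for Mcm3 and 0.148 for dpa without trxRNAi sucrose replicate 1. Without control sucrose replicate 2 it was 0.0870 for PCNA, 0.190 for RnrL and 0.0974 for CycE. The median difference of the tested genes stayed between 0.57 and 0.81 over those 12 fits.

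The summed enteroendocrine marker level moved with the same samples, while single markers went both ways. Summed over the 18 markers, values were between 7290 and 9629 in trxRNAi sucrose and between 20935 and 30284 in control sucrose. NPF alone made between 10.44% and 23.73% of that sum in trxRNAi sucrose and between 35.78% and 37.8% in control sucrose. Of the 18 markers 3 rose and 9 fell, beside 2.36% and 2.32% of all tested genes. Those that rose were pros by 1.38 ± 0.35 (adjusted p = 0.0385), mirr by 1.18 ± 0.31 (0.0359) and Syt4 by 4.06 ± 0.40 (6.65e-06). The 15 enterocyte markers summed to between 5927 and 9462 in trxRNAi sucrose and between 5496 and 14212 in control sucrose, and the 11 progenitor markers to between 16358 and 23170 in trxRNAi sucrose and between 19032 and 20892 in control sucrose, with hdc the most abundant of them. Of those 11 markers 2 rose and 0 fell, namely spdo by 2.25 ± 0.36 (adjusted p = 0.00108) and E(spl)mgamma-HLH by 1.97 ± 0.30 (adjusted p = 0.000709). The visceral muscle list of 9 genes summed to between 5256 and 11785 in trxRNAi sucrose and between 4692 and 5521 in control sucrose, of which Tm1 alone made at least 83.37% in trxRNAi sucrose and at least 83.84% in control sucrose. Without Tm1 the sums were between 874 and 921 in trxRNAi sucrose and between 674 and 892 in control sucrose, Act57B was at 0 in each trxRNAi sucrose library, and none of the 8 tested genes passed (limma, 1 at an unadjusted p under 0.05). The part of these in the replication gene differences was not tested.

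The same genotypes were then compared after DSS. Of the 35 genes 1 rose and 0 fell, or 2.86%, where 3.82% of all tested genes rose and 5.62% fell. At an unadjusted p under 0.05, 8 of the 35 differed, beside 22.4% of all tested genes. Their median difference was 0.24, against -0.01 over all tested genes, with 25 positive. In 6 genes every trxRNAi DSS library was above every control DSS library and in 2 every one was below, beside 12.2% and 13.3% of all tested genes. Rescaling to the mean total put the median of all genes at -0.14, and 200 genes rose and 594 fell in place of 321 and 472.

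The one gene that passed was Orc1 (FBgn0286788), the ATPase subunit of ORC that opens origin licensing. It had values of 29, 16 and 14 in trxRNAi DSS and 4, 4 and 7 in control DSS, a rise of 1.59 ± 0.47 (SE), or 3.02-fold, with an adjusted p of 0.0407. Every trxRNAi DSS library was above every control DSS library, although all 6 values were low. On the control libraries alone Orc1 did not reach the level needed for testing. It entered the test through the trxRNAi libraries, so its selection was not independent of genotype. The call held in 4 of the 12 fits that left out one library, with the highest adjusted p, 0.184, without trxRNAi DSS replicate 1. It ended at 0.116 without control DSS replicate 1, 0.105 without control DSS replicate 2, 0.0813 without trxRNAi DSS replicate 2 and 0.0641 without trxRNAi DSS replicate 3, and at 0.0532 after rescaling to the mean total. The count was 3 without control DSS replicate 3, where Orc1, dup and RnrS passed. Without trxRNAi sucrose replicates 1, 2 and 3, which enter only the shared spread, it was 0.0596, 0.0599 and 0.0515. Exons of PIG-G lie on the opposite strand within the last 500 bases of Orc1. PIG-G itself had 78, 83 and 66 in trxRNAi DSS and 83, 52 and 48 in control DSS, a difference of 0.34 (adjusted p = 0.631).

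The helicase genes that rose under sucrose had these differences under DSS. Mcm6 had 130, 128 and 170 in trxRNAi DSS and 105, 84 and 97 in control DSS, without overlap, a difference of 0.57 ± 0.22 that did not pass (adjusted p = 0.134). Mcm7 differed by 0.33 ± 0.30, Mcm3 by 0.28 ± 0.21 and dpa by 0.11 ± 0.24. Mcm5 and Mcm2 differed by 0.79 ± 0.34 and 0.66 ± 0.31 (adjusted p = 0.178 and 0.213). PCNA had 424, 343 and 451 in trxRNAi DSS and 342, 153 and 334 in control DSS. Its groups were separated by a single unit, 343 against 342, and the difference was 0.63 ± 0.32 (adjusted p = 0.267). RnrL had 133, 130 and 146 in trxRNAi DSS, inside the control DSS range of 82 to 188, and differed by 0.10 ± 0.31. RnrS had 268, 253 and 264 in trxRNAi DSS and 145, 72 and 273 in control DSS, with a difference of 0.87 ± 0.36 (adjusted p = 0.161). Without control DSS replicate 3, at 273, the difference of RnrS was 1.34 and passed (adjusted p = 0.00465), and without control DSS replicate 2, at 72, it was 0.39 (adjusted p = 0.483). The gene dup had 59, 60 and 55 in trxRNAi DSS and 26, 23 and 42 in control DSS, without overlap, and differed by 0.94 ± 0.33 (adjusted p = 0.0928).

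Of the 35 genes 10 were lower by value in trxRNAi DSS, and 2 of these, RpA-70 and E2f1, without overlap. RpA-70 had 102, 107 and 125 in trxRNAi DSS and 197, 155 and 160 in control DSS. Each trxRNAi library was below each control library, and the difference of -0.60 ± 0.19 narrowly missed the threshold (adjusted p = 0.0559). It was -0.73 with an adjusted p of 0.0303 after rescaling to the mean total, and 0.0492 without control sucrose replicate 1. E2f1 had 1702, 1837 and 1823 in trxRNAi DSS and 2010, 2145 and 2708 in control DSS, again without overlap, a difference of -0.34 ± 0.15 (adjusted p = 0.167). CycE had 103, 78 and 70 in trxRNAi DSS and 53, 48 and 158 in control DSS, so control DSS held both the lowest and the highest library, and its difference was 0.15 ± 0.36. The remaining differences lay between -0.64 for Psf3 and 0.70 for Orc2, and none of them passed. Enteroendocrine markers summed to between 4056 and 5451 in trxRNAi DSS and between 23144 and 31873 in control DSS, and 15 of the 18 fell. Progenitor markers summed to between 13862 and 16920 in trxRNAi DSS and between 18968 and 26952 in control DSS, and 5 of the 11 fell. Of all tested genes 5.62% fell. Enterocyte markers summed to between 5928 and 8175 in trxRNAi DSS and between 8954 and 13095 in control DSS, and visceral muscle genes, again mostly Tm1, to between 5200 and 7658 in trxRNAi DSS and between 4601 and 10066 in control DSS. The part of these lists in the replication gene differences was not tested.

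**Figure D3:**
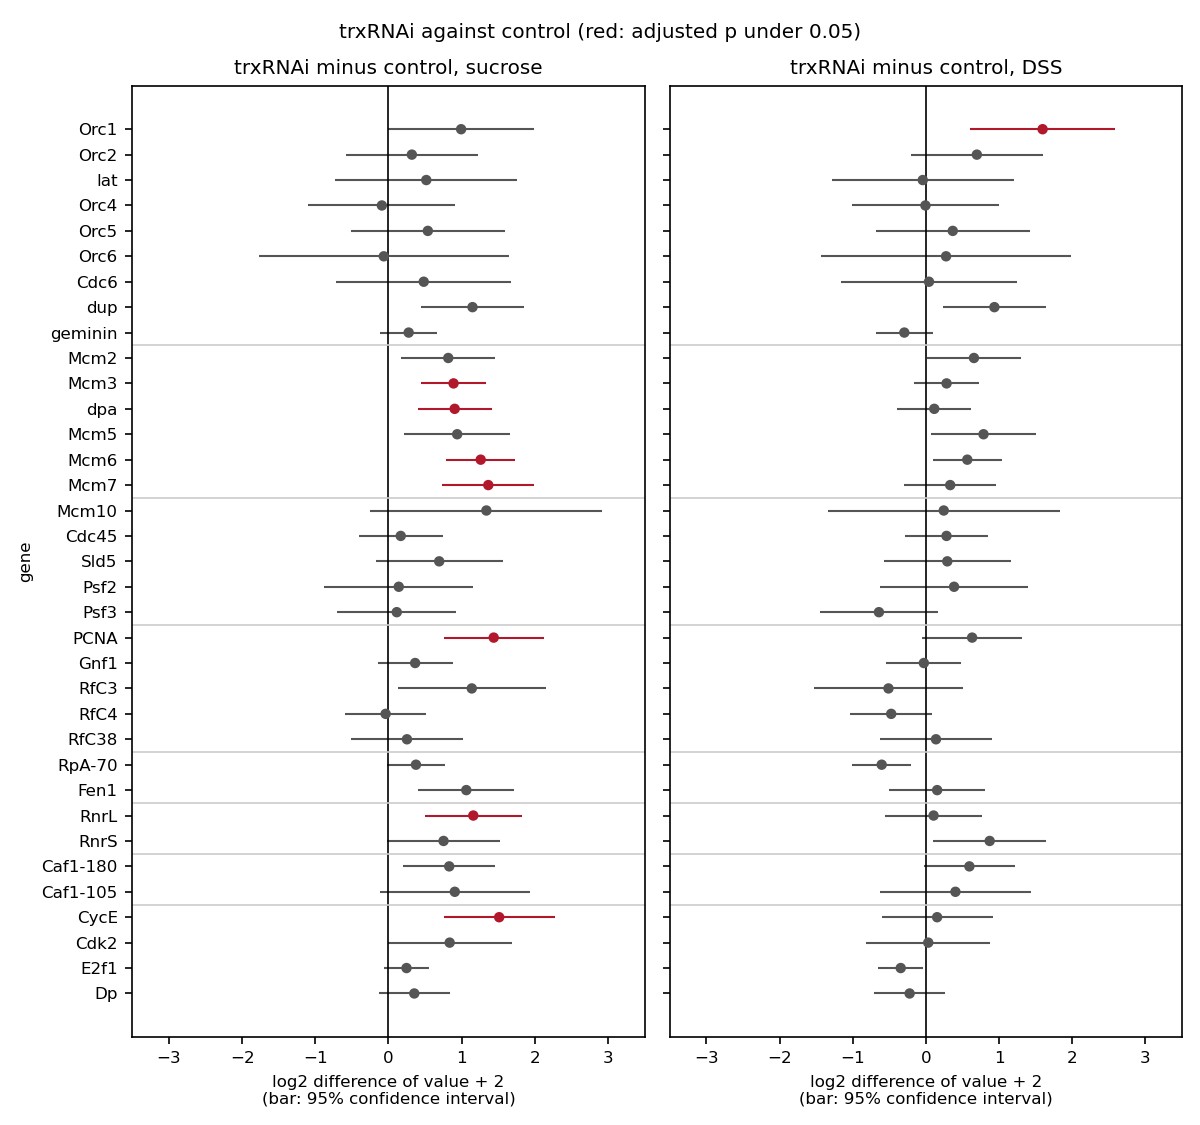
Log2 difference of value plus 2 between trxRNAi and control for the 35 tested replication genes under sucrose (left) and DSS (right), with 95% confidence intervals and genes in the order of their roles. Under sucrose 7 genes, in red, lie past the threshold, and under DSS only Orc1 does, while intervals of the low ORC genes, Cdc6 and Mcm10 are wide.

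The third question was how these genes differed between DSS and sucrose in each genotype. In control progenitors none of the 35 passed (limma, 0 rose and 0 fell at an adjusted p under 0.05), and 6 differed at an unadjusted p under 0.05, as did 14.4% of all tested genes. By adjusted p, of all tested genes 1.73% rose and 1.36% fell. The median difference was 0.35, against 0.02 over all tested genes, and 30 of the 35 were positive. In 4 genes (Mcm3, Mcm6, RpA-70 and E2f1) every control DSS library was above every control sucrose library, in none was every one below, and 7.97% and 8.17% of all tested genes did not overlap in those directions. Rescaling to the mean total put the median of all genes at 0.15, where 198 genes rose and 66 fell in place of 145 and 114 and 0 of the tested replication genes passed. This comparison and the one of genotype under sucrose share the control sucrose libraries, so a low value there raises both.

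Mcm3 came closest in control progenitors, with 149, 132 and 116 under DSS and 100, 74 and 80 under sucrose and a difference of 0.64 ± 0.21 (adjusted p = 0.135). Mcm6 had 105, 84 and 97 under DSS and 65, 49 and 69 under sucrose, a difference of 0.64 ± 0.22 (adjusted p = 0.161). For both genes the 3 DSS libraries were above the 3 sucrose libraries. RfC3 had 41, 20 and 58 under DSS and 30, 5 and 18 under sucrose, a difference of 1.22 ± 0.48 (adjusted p = 0.219). RnrL differed by 0.80 ± 0.31 (adjusted p = 0.221), PCNA by 0.69 ± 0.32 (adjusted p = 0.335) and CycE by 0.66 ± 0.36 (adjusted p = 0.433). Control DSS replicate 2 was the lowest of its group for PCNA at 153, RnrL at 82, RnrS at 72, Fen1 at 77 and CycE at 48. Replicate 3 was the highest for CycE at 158, RnrS at 273 and Dp at 358, and it also had the lowest trx value of the control libraries, 652. Without replicate 2 the difference of PCNA was 1.07 with an adjusted p of 0.0468, the 1 member that passed in any of the 12 fits that left out a library. The difference of CycE rested on replicate 3: without it the difference was 0.13 (adjusted p = 0.893).

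In trxRNAi progenitors none of the 35 passed for DSS against sucrose (limma, 0 rose and 0 fell at an adjusted p under 0.05), and 1 differed at an unadjusted p under 0.05, as did 12.6% of all tested genes. By adjusted p, of all tested genes 0.964% rose and 2.58% fell. The median difference was -0.12, against 0.00 over all tested genes, and 27 of the 35 were negative. Every trxRNAi DSS library was below every trxRNAi sucrose library in 8 genes (geminin, RfC3, RpA-70, Fen1, RnrL, CycE, E2f1 and Dp) and above in 1, RnrS, beside 11.4% and 9.67% of all tested genes. RpA-70 had 102, 107 and 125 under DSS and 179, 155 and 157 under sucrose, a difference of -0.55 ± 0.19 (adjusted p = 0.159). CycE had 103, 78 and 70 under DSS and 152, 112 and 145 under sucrose, a difference of -0.70 ± 0.36 (adjusted p = 0.467). The 6 genes of the Mcm ring lay on both sides of 0, with Mcm2 at 0.27, Mcm5 at 0.09, Mcm3 at 0.03 ± 0.21, Mcm6 at -0.06 ± 0.22, dpa at -0.34 and Mcm7 at -0.44, and Mcm10 had -0.64. The 95% confidence interval of Mcm6 ran from -0.53 to 0.41 and that of Mcm3 from -0.42 to 0.48. PCNA differed by -0.12 ± 0.32, with an interval from -0.80 to 0.57.

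**Figure D4:**
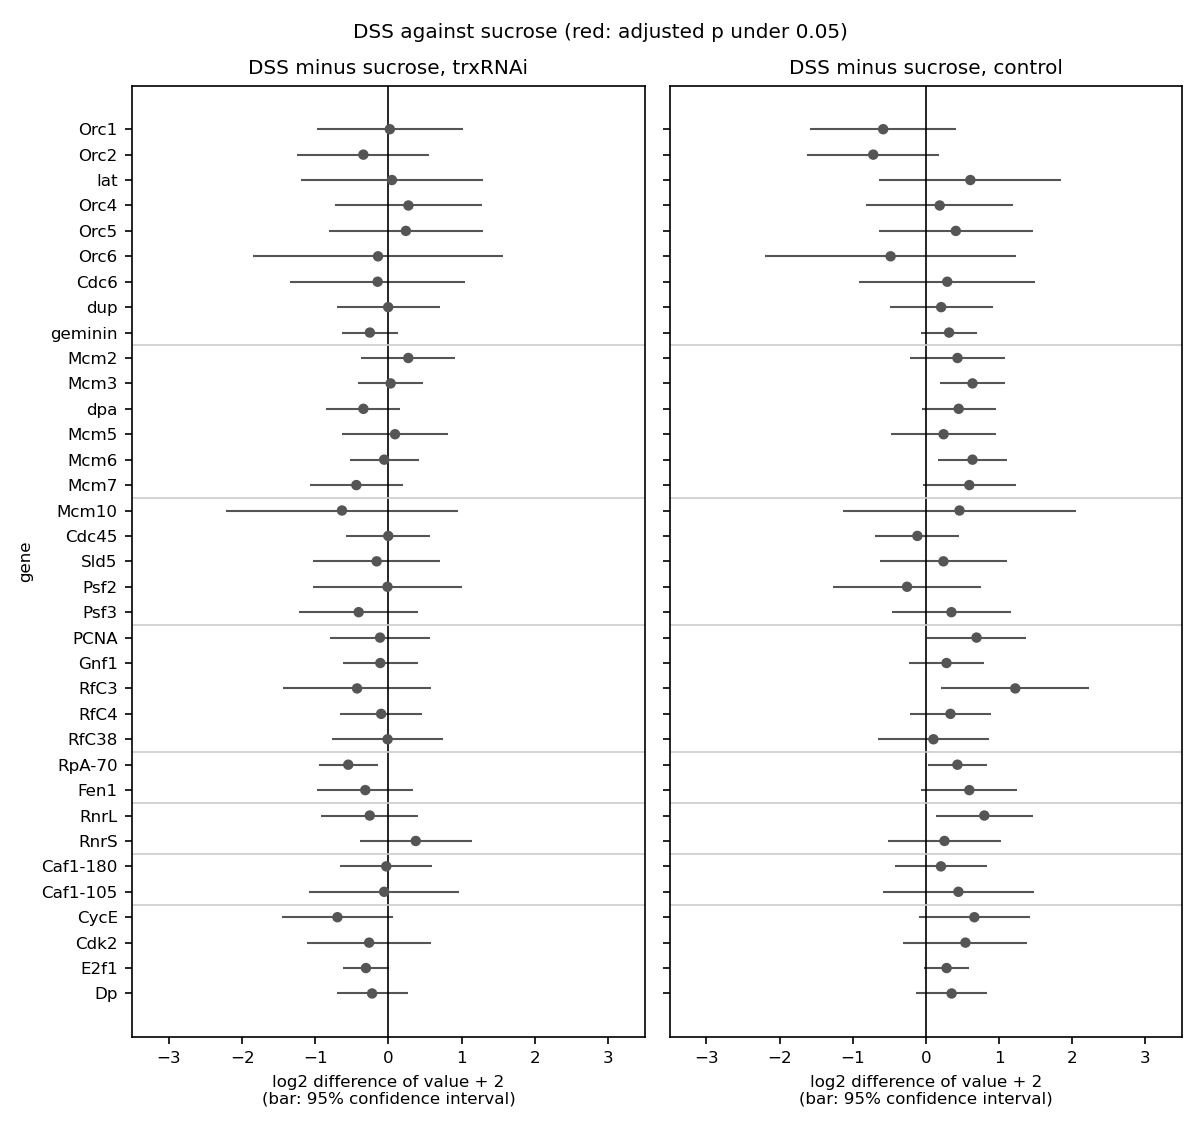
Log2 difference of value plus 2 between DSS and sucrose for the 35 tested replication genes in trxRNAi (left) and control (right), with 95% confidence intervals. No gene lies past the threshold in either genotype, and most points are left of 0 in trxRNAi, with a median of -0.12, and right of 0 in control, with a median of 0.35.

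The difference between those feed effects, trxRNAi minus control, was tested as an interaction. The RNAi target trx itself passed that test, at 0.92, and trx differed between genotypes under sucrose only. The trx call was lost in most of the 12 fits that left out one library, with the highest adjusted p, 0.116, without trxRNAi sucrose replicate 3. Genotype under DSS is thus as labelled here too. Of the 35 genes 1 passed, with a lower feed effect in trxRNAi, or 2.86%, and 0 passed in the other direction, where 5.25% of all tested genes passed as lower and 3.61% as higher. At an unadjusted p under 0.05, 9 of the 35 differed, against 20.8% of all tested genes. The median was -0.50, against -0.01 over all tested genes, and 28 of the 35 were negative. The gene was RpA-70, with -0.98 ± 0.27 (SE) and an adjusted p of 0.0297. Its feed difference was -0.55 in trxRNAi and 0.43 in control. The call held in 4 of the 12 fits that left out one library, and the adjusted p was highest at 0.0854 without trxRNAi sucrose replicate 1. The count was 2 without control sucrose replicate 1, where RnrL had -1.39 (adjusted p = 0.0438), and 2 without control DSS replicate 2, where CycE had -1.66 (adjusted p = 0.04696). The RpA-70 call was also lost without trxRNAi sucrose replicates 2 and 3 (0.0536 and 0.0533), trxRNAi DSS replicates 1 and 2 (0.0633 and 0.0691), control DSS replicate 1 (0.0834) and control sucrose replicates 2 and 3 (0.0714 and 0.0658). E2f1 followed with -0.59 ± 0.21 (adjusted p = 0.0932), and it had -0.81 with an adjusted p of 0.0185 after rescaling to the mean total, which moved the median of all genes to -0.23. CycE had -1.36 ± 0.51 (adjusted p = 0.121), Mcm7 -1.03 ± 0.42 (0.160), RfC3 -1.65 ± 0.68 (0.161), RnrL -1.05 ± 0.44 (0.175) and dpa -0.79 ± 0.34 (0.182), none of which passed. Under the rescaling to the mean total 166 of all genes passed as higher and 600 as lower, in place of 303 and 441.

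Other genes of replication and its control were read from lists beside the members. Of 27 further fork, polymerase and nucleotide genes 24 were tested. Under sucrose 2 of them rose and 0 fell in trxRNAi, beside 2.36% and 2.32% of all tested genes, with a median difference of 0.75 and 22 positive. Every trxRNAi sucrose library was above every control sucrose library in 14 of the 24, beside 11.7% of all tested genes. The dUTPase gene, whose product keeps uracil out of DNA, had 464, 567 and 471 in trxRNAi sucrose and 271, 179 and 244 in control sucrose. It rose by 1.12 ± 0.22 (SE) with an adjusted p of 0.00593, and the call held in each of the 12 fits that left out one library. Ts, the thymidylate synthase gene, had 90, 76 and 69 in trxRNAi sucrose and 32, 20 and 25 in control sucrose and rose by 1.55 ± 0.38 (adjusted p = 0.0232), or 0.110 without trxRNAi sucrose replicate 1, the highest of 5 left-out libraries that ended the call. Its groups did not overlap. Of 17 tested G1 and S phase regulators outside the members none passed under sucrose (limma), with 4 at an unadjusted p under 0.05, and of 8 checkpoint genes in no other list none did, with 0 at an unadjusted p under 0.05.

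Under DSS the kinase gene Cdc7, whose product phosphorylates the Mcm ring to fire origins, had 105, 79 and 92 in trxRNAi and 143, 213 and 145 in control. Cdc7 fell by 0.83 ± 0.21 (SE) with an adjusted p of 0.0152, and without control DSS replicate 2 or trxRNAi DSS replicate 2 the adjusted p was 0.0847 and 0.0752. In control progenitors Cdc7 rose under DSS, with 143, 213 and 145 against 89, 88 and 99 under sucrose, by 0.82 ± 0.21 (adjusted p = 0.0363). That call held in 4 of the 12 fits that left out one library and had its highest adjusted p, 0.139, without control DSS replicate 2. The interaction of Cdc7 was -1.44 ± 0.29 (adjusted p = 0.00358) and that of dUTPase -1.31 ± 0.31 (adjusted p = 0.0119), and both calls held in each of the 12 fits. Of the 24 tested genes of that list, 0 rose and 1 fell under DSS, beside 3.82% and 5.62% of all tested genes. For feed in control 1 rose and 0 fell, beside 1.73% and 1.36%. In the interaction 0 passed as higher and 2 as lower, beside 3.61% and 5.25%.

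Of the regulators fzr passed under DSS, and fzr, stg and CycA in the interaction. Under DSS 1 of the 17 tested rose and 0 fell, beside 3.82% and 5.62% of all tested genes. In the interaction 1 of the 17 passed as higher and 2 as lower, beside 3.61% and 5.25% of all tested genes. The gene fzr, an activator of the anaphase-promoting complex known in flies for moving cells into endocycles, had 412, 330 and 362 in trxRNAi DSS and 215, 195 and 157 in control DSS. It rose by 0.96 ± 0.18 (SE) with an adjusted p of 0.00195, in each of the 12 fits as well, and its interaction was 0.91 ± 0.25 (adjusted p = 0.0307). The mitotic phosphatase gene stg, fly Cdc25, had 40, 54 and 56 in trxRNAi DSS and 167, 85 and 92 in trxRNAi sucrose, beside 57, 76 and 129 in control DSS and 79, 27 and 51 in control sucrose. Its interaction was -1.87 ± 0.53 (adjusted p = 0.0372). CycA, the mitotic cyclin gene, had 149, 131 and 113 in trxRNAi DSS and 230, 174 and 163 in trxRNAi sucrose, beside 212, 167 and 196 in control DSS and 194, 98 and 90 in control sucrose. Its interaction was -1.18 ± 0.36 (adjusted p = 0.04998). The interaction calls held in 5, 3 and 2 of the 12 fits for fzr, stg and CycA, with highest adjusted p of 0.0845 without trxRNAi sucrose replicate 3 for fzr, and 0.107 and 0.140 without trxRNAi sucrose replicate 1 for stg and CycA. The checkpoint kinase gene lok had 60, 79 and 73 in trxRNAi DSS and 141, 155 and 87 in control DSS. It fell by 0.80 ± 0.25 (adjusted p = 0.0486), a call that held in 1 of the 12 fits, with 0.185 without control DSS replicate 2. Of the 8 checkpoint genes in no other list, lok was the 1 that passed under DSS, beside 5.62% of all tested genes that fell.

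**Figure D5:**
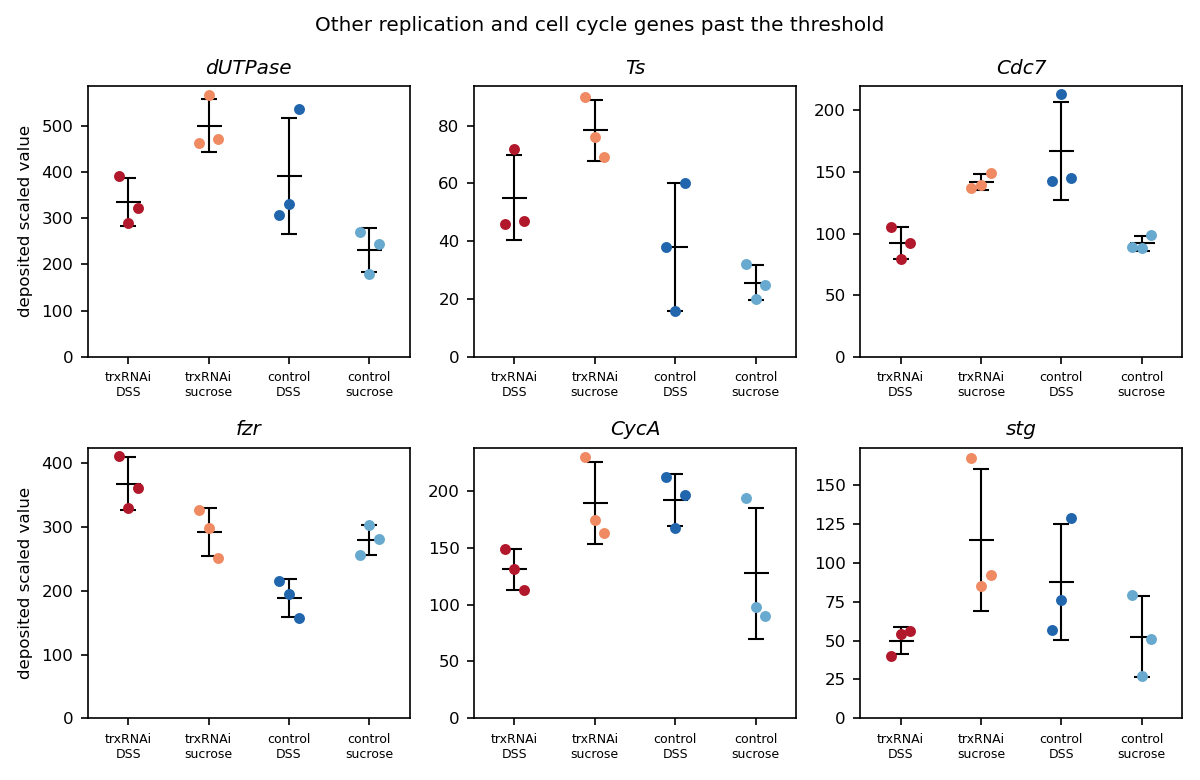
Deposited scaled values of 6 further replication and cell cycle genes that passed in at least one comparison, with one point per library, the group mean as a horizontal mark and the SD as a bar (n = 3). The trxRNAi sucrose points of dUTPase, between 464 and 567, lie above those of control sucrose, and the trxRNAi DSS points of fzr, between 330 and 412, lie above those of control DSS.

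Where another gene shares the 3′ end, reads may be assigned to either. For 11 of the 36 genes an exon of a gene on the opposite strand lies within the last 500 bases, Mcm3, Orc1 and Fen1 among them, and the use of strand in counting is not given in the sources used here. Mcm3 shares its end with CG3309, whose values were 12, 16 and 16 in trxRNAi sucrose and 20, 26 and 18 in control sucrose, a difference of -0.48 (adjusted p = 0.591) while Mcm3 rose. On the same strand, lat overlaps CG34315. The lat values of 7, 13 and 20 in trxRNAi sucrose and 11, 4 and 11 in control sucrose were close to the 9, 13 and 25 and the 17, 4 and 13 of CG34315, so the level of lat is uncertain.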

How the data were processed

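RNA of 12 libraries of sorted midgut progenitors was measured by 3′ mRNA sequencing, per the labels' protocols. The submitters' processing notes name the build dm6 and the tools HISAT2, Bowtie2, bcl2fastq, limma, edgeR, DESeq and DESeq2, with neither role nor version. For the counter, annotation and strand use the sources used here give nothing. The authors deposited whole-number values for 17617 genes, used here as a score. Among low values, whole-number classes are missing or doubled at regular spacing, so the values were taken as read counts scaled by one factor per library and rounded, and no count test was run. Such scaling sets typical genes level, so total RNA cannot be compared.

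Groups and replicate numbers came from titles. Symbols for 17520 identifiers, and positions, came from an Ensembl annotation of dm6. The 8399 genes that reached 10 in 3 or more libraries entered 1 limma model (limma 3.58.1, statmod 1.5.0, R 4.3.3) of log2 (value + 2) with a mean per group, an intensity trend and robust variance. Adding 2 understates changes of low genes. Of the 36 replication genes, 31 pass that filter on the 6 control libraries alone, and Orc1 is not among them. Benjamini-Hochberg adjustment ran over all 8399. The fit was tested on simulated data. Members, lists and tests were chosen with earlier results of these data known. Named were all members, trx, and those of 3 further replication and cell cycle lists that passed. Overlap partners were named after their values were seen. Alternatives were 2 rescalings, 2 filters, 2 pseudocounts, a replicate block, a fit without trend or robust variance, a fit of only the libraries compared, and leaving out each library.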

Additional observations from a re-analysis of the deposited data

Results flagged for a closer look

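RpA-70 passed the test for a feed effect that differs between the genotypes as labelled. It was the 1 of 35 tested replication genes that did, or 2.86%, beside 5.25% of all tested genes that passed as lower. The call held in 4 of the 12 fits that left out one library. With no filter beyond a value of 1 it was lost (adjusted p = 0.0504, limma). The DSS minus sucrose difference in trxRNAi minus that in control was -0.98 on the log2 scale of value plus 2, with an adjusted p of 0.0297 in limma's interaction test. Its values were 102, 107 and 125 in trxRNAi DSS, 179, 155 and 157 in trxRNAi sucrose, 197, 155 and 160 in control DSS and 148, 112 and 119 in control sucrose. The RNAi target trx passed the interaction test as well, at 0.92, and did not differ between genotypes under DSS. That trx call was lost in most fits that left out one library.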

How the results depend on the processing

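The count of tested replication genes that rose in trxRNAi under sucrose, 7, was 4 without trend and robust variance, between 5 and 9 under the other alternatives, and between 1 and 9 when one library was left out. The calls that ended, by adjusted p, were PCNA 0.0532, CycE 0.0618 and RnrL 0.103 without trend and robust variance, dpa 0.0598 and RnrL 0.0583 with no filter beyond a value of 1, and dpa 0.0527 with only the libraries compared. The count that fell was 0 throughout. Under DSS, the count that rose, 1, became 0 when rescaled to the mean total and with no filter beyond a value of 1. It was also 0 with the replicate block and with only the libraries compared. With a value of at least 50 in 3 libraries it was 0 too, but there Orc1, at 29 or less, was not tested. That count was between 0 and 3 when one library was left out. The count that fell under DSS, 0, became 1 when rescaled to the mean total and with a value of at least 50 in 3 libraries, and was between 0 and 1 when one library was left out. For the feed effect in control it was between 0 and 1 higher when one library was left out, and in trxRNAi 0 in both directions throughout. The median interaction of the tested replication genes, -0.50, was -0.73 when rescaled to the mean total. The interaction count, 1 lower, became 2 when rescaled to the mean total and 0 with no filter beyond a value of 1, and was between 0 and 2 when one library was left out. The cause was not tested. With the replicate block 9 genes rose under sucrose. Of 18 pairs of same-numbered libraries in different groups, 7 had deviations correlated above 0.1, beside 6 of 36 other pairs. The median correlations were 0.07 and -0.04, so same-numbered libraries correlated more often, though weakly. Of 12 libraries 5 correlated best with one of their own number. The main fit did not treat the numbers as pairs. Over all genes, counts under sucrose were between 90 and 284 higher and between 93 and 298 lower when one library was left out. No sign of a called difference was reversed in the alternatives run. Standard errors under sucrose reached 0.81 among tested replication genes with a mean value under 50 and 0.36 among the others.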
